A study of Mus musculus with 30 samples.

Results

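The interaction of prostaglandin E2 (PGE2) with stimulation through the activating receptor NK1.1 was measured in cultured wild-type (WT) mouse splenic natural killer (NK) cells by ATAC-seq, which reads open chromatin through insertions of a transposase. For each peak it is a difference of differences: the log2 effect of PGE2 in stimulated cells minus the log2 effect of PGE2 in resting cells. It equals the effect of stimulation with PGE2 minus the effect of stimulation without it. A value of 0 means that the fold changes multiply, a negative interaction means a smaller or more negative effect of either agent when the other is present, and a positive interaction the reverse. The contrast used the 15 WT libraries of 30 in all, and was computed for every peak tested.

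The WT groups were 4 libraries with PGE2 and NK1.1 stimulation, 4 stimulated without PGE2, 3 resting with PGE2 (numbered 2 to 4), and 4 resting without PGE2. NK cells from C57BL/6J spleens grew for 5 days in IL-2 and IL15:IL15Ra. PGE2 was given at 100 ng/ml, for 5 h in resting groups. In stimulated groups it was given for 1 h before NK1.1 was engaged for 4 h. Whether PGE2 stayed on during those 4 h was not established here. The comparison genotype, here the KO, was GzmbCre Ptger2-/- Ptger4fl/fl, which lacks the PGE2 receptors EP2 (Ptger2) and EP4 (Ptger4). It had the same 4 conditions in 15 libraries. Ptger4 loss depends on Cre driven by granzyme B sequences, and WT mice carried no Cre, so receptor loss and Cre cannot be told apart. Ages and sexes are not given in the sources used here. Whether replicates are separate animals or cultures is not stated in the labels. The p-values therefore measure the spread between these libraries, which may be technical.

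NK1.1 signals through adaptors that carry immunoreceptor activation motifs. Kinases of the Syk family, calcium and NFAT, MAP kinases and AP-1, and NF-κB lie downstream, and the cells then make cytokines and chemokines and release cytotoxic granules. PGE2 is a lipid mediator of inflammation and tumours. Its receptors EP2 and EP4 couple to the stimulatory G protein Gs, which raises cyclic AMP and activates protein kinase A and CREB, a pathway known to restrain NK cell effector functions.

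Promoters of 4 genes on which the results turn show what lay inside the peaks. Ccl1 had the largest interaction, Cish and Ifng had negative ones, and Ccr2 had a positive one. Each line gives the RefSeq promoter window of assembly GRCm38.p6, 5′ to 3′ on the gene's strand, and each window lay wholly inside a called promoter peak. Capitals mark matches, on either strand, to 4 motifs: AP-1 (TGANTCA), CRE (TGACGTCA), the NFAT core (TGGAAA) and GAS, the site class bound by STAT factors (TTCNNNGAA).
Ccl1 promoter, chr11:82179763-82180062 (- strand): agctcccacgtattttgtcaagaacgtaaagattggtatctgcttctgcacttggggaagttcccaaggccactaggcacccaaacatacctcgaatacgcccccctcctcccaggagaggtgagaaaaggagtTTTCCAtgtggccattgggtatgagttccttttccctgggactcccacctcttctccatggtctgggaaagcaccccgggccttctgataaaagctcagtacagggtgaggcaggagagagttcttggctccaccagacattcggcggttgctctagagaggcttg
Cish promoter, chr9:107296409-107296708 (+ strand): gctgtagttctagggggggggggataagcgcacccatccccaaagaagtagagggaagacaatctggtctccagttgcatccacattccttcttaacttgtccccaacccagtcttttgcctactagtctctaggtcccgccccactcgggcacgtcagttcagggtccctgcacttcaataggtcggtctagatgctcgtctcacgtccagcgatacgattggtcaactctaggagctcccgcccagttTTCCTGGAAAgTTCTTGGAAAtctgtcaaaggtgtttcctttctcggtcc
Ifng promoter, chr10:118440796-118441095 (+ strand): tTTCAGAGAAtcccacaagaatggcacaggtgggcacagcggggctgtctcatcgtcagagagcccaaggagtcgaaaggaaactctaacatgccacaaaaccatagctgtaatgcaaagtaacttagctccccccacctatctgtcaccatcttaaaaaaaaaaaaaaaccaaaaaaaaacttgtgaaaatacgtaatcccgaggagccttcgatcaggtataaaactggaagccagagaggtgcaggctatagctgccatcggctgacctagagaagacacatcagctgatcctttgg
Ccr2 promoter, chr9:124101933-124102232 (+ strand): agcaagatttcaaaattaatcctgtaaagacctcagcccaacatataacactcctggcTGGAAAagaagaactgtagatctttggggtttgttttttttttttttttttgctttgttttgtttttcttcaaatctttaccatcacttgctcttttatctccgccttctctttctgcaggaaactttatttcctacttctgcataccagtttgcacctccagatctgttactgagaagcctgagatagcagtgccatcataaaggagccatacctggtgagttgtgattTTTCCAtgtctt
The Ccl1 window held 1 NFAT core, on the reverse strand. In the Cish window each of 2 GAS matches overlapped an NFAT core. The Ifng window held 1 GAS match, and the Ccr2 window held 2 NFAT cores. A match is a match of letters only.

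WT libraries held 10575515 to 17980324 reads in 38526 peaks, recovered as whole reads from the normalised counts, and KO libraries 8444350 to 20153816. All 12 NK cell marker genes had a promoter peak. Of markers of other cells, 2 of 8 T cell, 0 of 5 B cell, 3 of 7 myeloid, 2 of 6 ILC2 and ILC3, and 1 of 5 erythroid genes had one. Summed normalised counts over all peaks of the ILC2 and ILC3 markers were 6094 to 7412 with PGE2 and stimulation, 4822 to 5317 with stimulation alone, 6621 to 6835 with PGE2 at rest and 4917 to 5575 without either. Those of the 1 B cell marker with peaks were 449 to 532, 304 to 374, 512 to 600.0 and 465 to 535 in the same groups. The part of such cells in the results was not tested. Accessibility is not expression, fewer open cells and less opening per cell cannot be told apart in bulk libraries, and peaks carry the gene name that the deposited table gives them. Genes of families of similar sequence, such as Ccl, Gzm and Serpinb9, are uncertain as names for single peaks.

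PGE2 weakened the chromatin response to NK1.1 in both directions. Peaks that stimulation opened, among them peaks near Ccl1, Xcl1, Ifng, Il2ra, Cish and Tnfaip3, opened less with PGE2, and peaks that stimulation closed, among them peaks near Ccr2 and Adcy7, closed less. With limma on log2(normalised count + 1), 9757 of 38525 tested peaks passed an adjusted p under 0.05, which is 25.3%. The interaction was negative at 5669 peaks (14.7%) and positive at 4088 (10.6%). At an unadjusted p under 0.05 there were 13851. Over all tested peaks the median interaction was −0.02 log2.

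At the 5669 peaks with a negative interaction, the median stimulation effect was 0.45 log2 with PGE2 and 1.46 without it. At the 4088 positive ones it was −0.12 with PGE2 and −0.82 without. These effects enter the interaction itself and describe its shape. Stimulation without PGE2, which opened 28.9% and closed 27.4% of all tested peaks, was called as opening at 5555 of the negative peaks (98.0%) and as closing at 3953 of the positive ones (96.7%). The negative changes were larger: 2723 of them (48.0%) reached 1 log2 unit and 383 reached 2, while 597 positive ones (14.6%) reached 1 and 0 reached 2. Stimulated cells without PGE2 had the highest mean of the 4 WT groups at 5045 negative peaks (89.0%), beside 35.7% of all tested peaks. Resting cells without PGE2 had the highest mean at 2662 positive peaks (65.1%), beside 30.4% of all. The interaction is built from these 4 groups, so shares above those of all peaks follow in part from the choice.

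**Figure D1:**
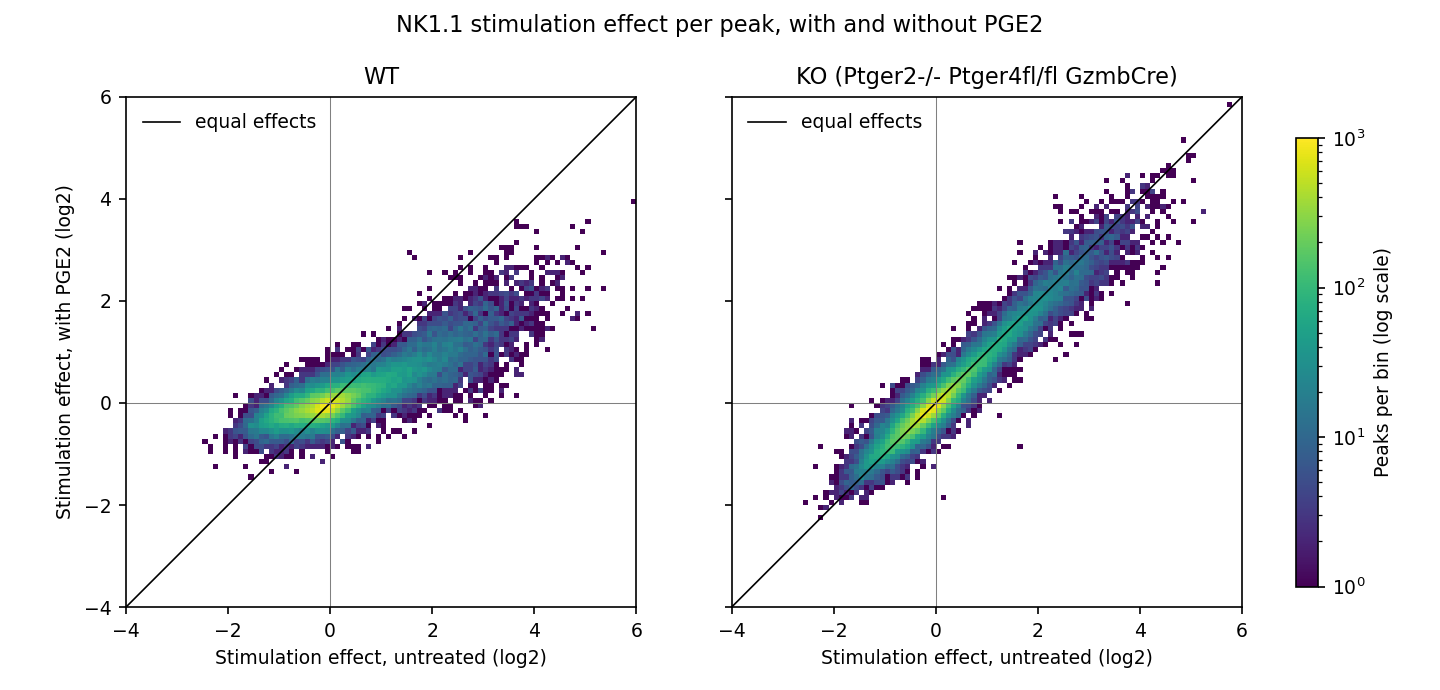
Peaks binned by the NK1.1 stimulation effect in untreated cells (horizontal, log2) and in PGE2-treated cells (vertical, log2), in WT (left) and the KO (right); colour is the number of peaks per bin on a log scale and the diagonal marks equal effects. In WT the cloud lies flatter than the diagonal on both sides of 0, with 5669 called peaks below and 4088 above it; in the KO it follows the diagonal and 0 peaks were called.

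The PGE2 effects at rest and during stimulation share no library. PGE2 opened 7767 peaks (20.2%) and closed 7852 (20.4%) during stimulation, and opened 4186 (10.9%) and closed 1554 (4.03%) at rest. It acted in the same direction in both states at 2132 opened and 550 closed peaks. At 497 peaks it opened at rest and closed during stimulation, which was 11.9% of those opened at rest and 6.33% of those closed during stimulation. The opposite turn occurred at 197 peaks, 12.7% of those closed at rest and 2.54% of those opened during stimulation. This last count was 64 without the resting PGE2 library of replicate 3, and 118 and 131 without the resting untreated libraries of replicates 1 and 2.

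Most negative peaks, like most tested peaks, had no called PGE2 effect at rest. Among the 5555 that stimulation opened, PGE2 alone was not called at 3791, opened 1633 and closed 131. Among all 38525 tested peaks it was not called at 32785, opened 4186 (10.9%) and closed 1554 (4.03%). The share opened at rest was thus higher among the 5555. The resting PGE2 effect enters the interaction with a minus sign, so this follows in part from the choice. At these 1633 negative peaks, which each agent alone opened, the median effect of PGE2 was −0.16 log2 during stimulation and 0.86 at rest. A higher value at rest is fixed by choosing peaks with a negative interaction, and only describes their shape. There the 2 agents together gave a median of 1.43 log2 over cells with neither, and stimulation alone gave 1.57. At the 3791 peaks the combined median was 0.55 against 1.45 for stimulation alone.

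KO libraries gave a set of stimulated sites chosen without the WT group means. The choice is not fully independent of the WT calls, since all 30 libraries shared the estimate of each peak's spread, and a peak with a low spread is called more readily in both. In untreated KO cells NK1.1 opened 10816 peaks (28.1%) and closed 10185 (26.4%). At the 10816 peaks the median WT stimulation effect was 0.39 log2 with PGE2 and 0.99 without, so that 39.1% of it remained. The KO values at the same peaks were 0.92 and 0.99, or 93.1%, but the untreated KO value there was used to choose the peaks. Of the 10816 peaks, 5366 (49.6%) had a called negative WT interaction, beside 14.7% of all tested peaks, and 8 had a positive one. At the 10185 KO-closed peaks the WT medians were −0.18 with PGE2 and −0.57 without, so that 31.2% remained. The KO values there were −0.52 and −0.62, or 85.1%, with the untreated value again used to choose the peaks. Of these peaks 3649 (35.8%) had a positive interaction, beside 10.6% of all peaks.

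At KO-opened peaks, the share called and the share of the response that remained were both higher at larger KO effects. Neither trend was tested. The share with a negative WT interaction was 18.6% for KO effects of 0 to 0.5 log2, then 36.4% for 0.5 to 1, 65.0% for 1 to 2, 78.4% for 2 to 3 and 81.5% above 3. The share of the median WT response that remained with PGE2 was 31.5%, 38.6%, 40.3%, 44.2% and 51.0% in the same order. At KO-closed peaks the share with a positive interaction was 17.4%, 40.9% and 61.0% for effects of 0 to 0.5, 0.5 to 1 and 1 to 2 log2. There the share of the response that remained was 42.1%, 28.4% and 29.98%, with no rise at larger effects.

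The mean log2(normalised count + 1) of the KO-opened peaks, less that of all peaks, was −0.15, −0.19, −0.19 and −0.21 in WT libraries with PGE2 and stimulation, and 0.31, 0.19, 0.30 and 0.30 in those stimulated without PGE2. With PGE2 at rest it was −0.63, −0.63 and −0.65, and without PGE2 at rest −0.85, −0.80, −0.79 and −0.79. No 2 of the 4 groups overlapped, and the stimulated PGE2 libraries lay between the stimulated untreated and the resting ones. In stimulated KO libraries of replicates 1 to 4 it was 0.22, 0.18, 0.41 and 0.28 with PGE2, and 0.35, 0.26, 0.43 and 0.35 without. These groups overlapped, but the PGE2 library was the lower one at each of the 4 replicate numbers. At KO-closed peaks the PGE2 library was the higher one at each number, with −0.06, −0.01, −0.27 and −0.15 with PGE2, and −0.19, −0.15, −0.31 and −0.23 without.

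**Figure D2:**
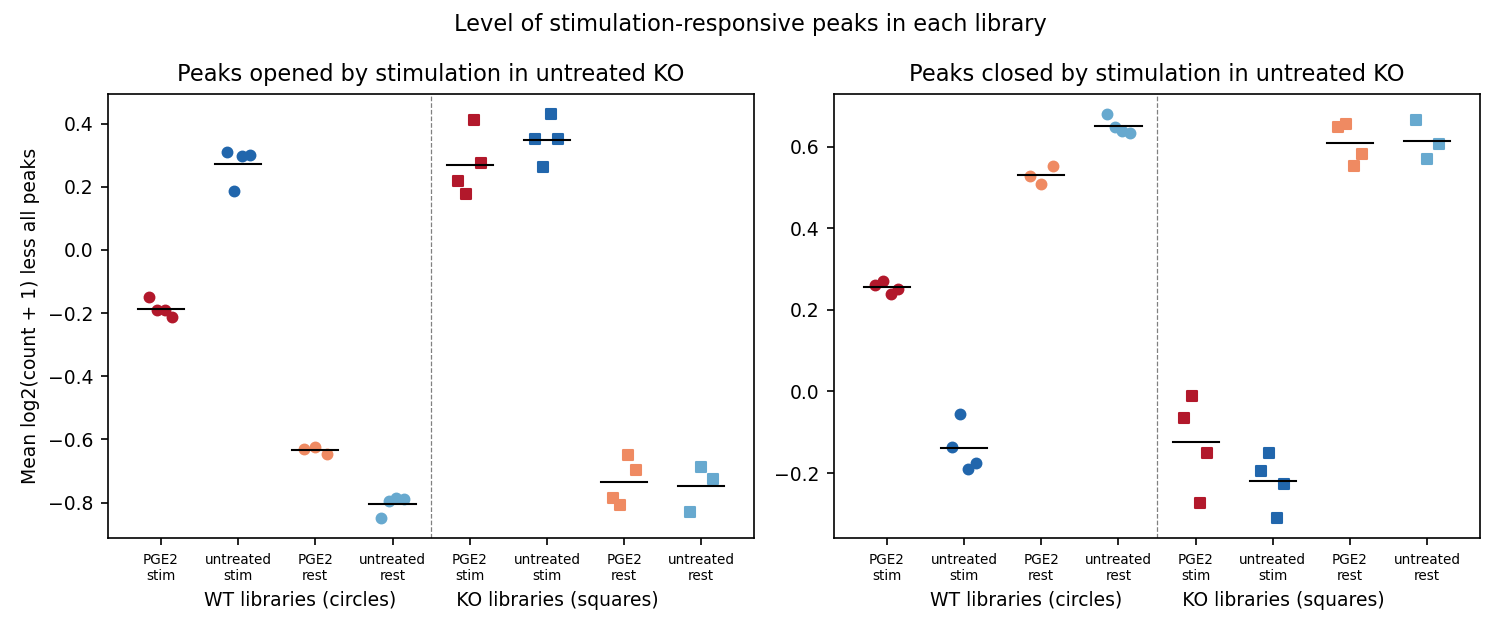
Mean log2(normalised count + 1) over peaks opened (left, 10816 peaks) or closed (right, 10185 peaks) by stimulation in untreated KO cells, less the mean over all peaks, for each library; circles are WT, squares KO, bars group means. WT libraries with PGE2 and stimulation sit at −0.21 to −0.15 on the left, apart from those stimulated without PGE2 at 0.19 to 0.31; the stimulated KO groups overlap.

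The same interaction in the KO gave 0 called peaks with limma, with 1308 (3.40%) at an unadjusted p under 0.05. With edgeR on whole reads there were also 0, with 1101 at an unadjusted p under 0.05. The unadjusted count was 916 with KO libraries alone and 1984 with a replicate block. With 1 KO library left out it was 1070 to 1889. The difference between the interactions, WT minus KO, was called at 3073 peaks, or 7.98%. It was more negative in WT at 2036 (5.28%) and more positive at 1037 (2.69%). Among the WT-called peaks the difference passed at 2016 of 5669 negative ones (35.6%) and 1004 of 4088 positive ones (24.6%). The WT interaction that chose these peaks is part of the difference. Shares above those of all peaks therefore follow from the choice, and are no separate support. The median KO interaction was −0.07 at the negative and 0.04 at the positive peaks. Without the resting WT library with PGE2 of replicate 3, 579 peaks were more positive in WT.

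Among the gene lists, cytokines and chemokines had the highest negative share. Of all tested peaks 14.7% were negative and 10.6% positive, which is the background for each list. Shares were higher at stimulated sites: of peaks opened in untreated KO cells 49.6% were negative, and of those closed 35.8% were positive. Whether a list's share goes beyond that of such peaks was not tested. Of 107 peaks of 19 genes of the list of NK cytokines and chemokines, 56 were negative and 6 positive (52.3% and 5.61%), with a median of −0.64, beside −0.02 for all peaks. All 56 were peaks that stimulation opened, and the list's median stimulation effect without PGE2 was 0.97 log2. Ccl1 encodes a chemokine that attracts CCR8-bearing cells. At its exon peak (chr11:82173321-82177520) the normalised counts were 254, 254, 149 and 180.4 with PGE2 and stimulation, against 4374, 3044, 2135 and 2069 with stimulation alone. At rest they were 76.2, 72.2 and 71.8 with PGE2 and 69.1, 74.8, 107 and 58.5 without. The stimulated groups were far apart and the resting groups overlapped. The interaction was −3.72 ± 0.32 log2 (limma adjusted p = 3.1e-10; ± on an interaction is its standard error), the KO value −0.16, and the difference −3.56 (limma adjusted p = 8.1e-06). Of 11 peaks assigned to Ccl1, 10 were negative, among them the promoter whose sequence is shown, at −3.36 ± 0.33.

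Xcl1 encodes lymphotactin, which attracts cross-presenting dendritic cells. A distal Xcl1 peak (chr1:164945289-164946196) had 185, 199.7, 203 and 153 with PGE2 and stimulation, against 469, 343, 454 and 473 with stimulation alone. At rest it had 59.5, 70.4 and 65.6 with PGE2 and 23.6, 31.1, 20.6 and 32.2 without. PGE2 libraries were thus all lower than untreated ones during stimulation and all higher at rest. Its interaction was −2.49 ± 0.24 (limma adjusted p = 1.5e-09), 0.12 in the KO, and the difference −2.61 (limma adjusted p = 8.1e-06). The Xcl1 promoter was at −0.95 ± 0.14, and 10 of 12 Xcl1 peaks were negative.

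Ifng encodes interferon-γ, the main macrophage-activating cytokine of NK cells. Its promoter peak (chr10:118440476-118441519) had 434, 448, 409 and 459.9 with PGE2 and stimulation, against 897, 729, 824 and 797 with stimulation alone, and 317, 326 and 337 with PGE2 at rest, against 398, 427, 381 and 349 without. Neither pair overlapped, and the gap was wider during stimulation (interaction −0.64 ± 0.14, limma adjusted p = 0.00065). The difference from the KO was −0.43 at this peak and missed the threshold (limma adjusted p = 0.18). The distal Ifng peak with the smallest p (chr10:118458536-118459491) had 278, 262, 269 and 247 with PGE2 and stimulation, against 311, 298, 356 and 339 with stimulation alone. At rest its counts were 216, 204 and 206 with PGE2, against 120.1, 129, 90.3 and 109 without. Here the PGE2 libraries were higher at rest and lower during stimulation, and the interaction was −1.20 ± 0.17 (limma adjusted p = 1.5e-06). Across 18 Ifng peaks, 9 were negative and 1 positive.

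Values of other members of the group ranged widely. Fas ligand (Fasl), which kills through a death receptor, had 7 negative and 4 positive peaks among 21, with −1.67 ± 0.17 at the one with the smallest p. The Csf2 promoter, of the growth factor GM-CSF, had −1.21 ± 0.15, and was chosen after its values were seen. Ccl3 encodes an inflammatory chemokine. Its promoter averaged 1367 ± 113 normalised counts (± on a mean is the SD over the group's 4 libraries, or 3 with PGE2 at rest) with PGE2 and stimulation, 4173 ± 506 with stimulation alone, 557 ± 46.7 with PGE2 at rest and 1227 ± 106 without either. PGE2 lowered it in both states (−1.61 and −1.14 log2), and the interaction of −0.47 ± 0.18 missed the threshold (limma adjusted p = 0.054), although it passed with the WT libraries alone (−0.47, limma adjusted p = 0.00305).

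**Figure D3:**
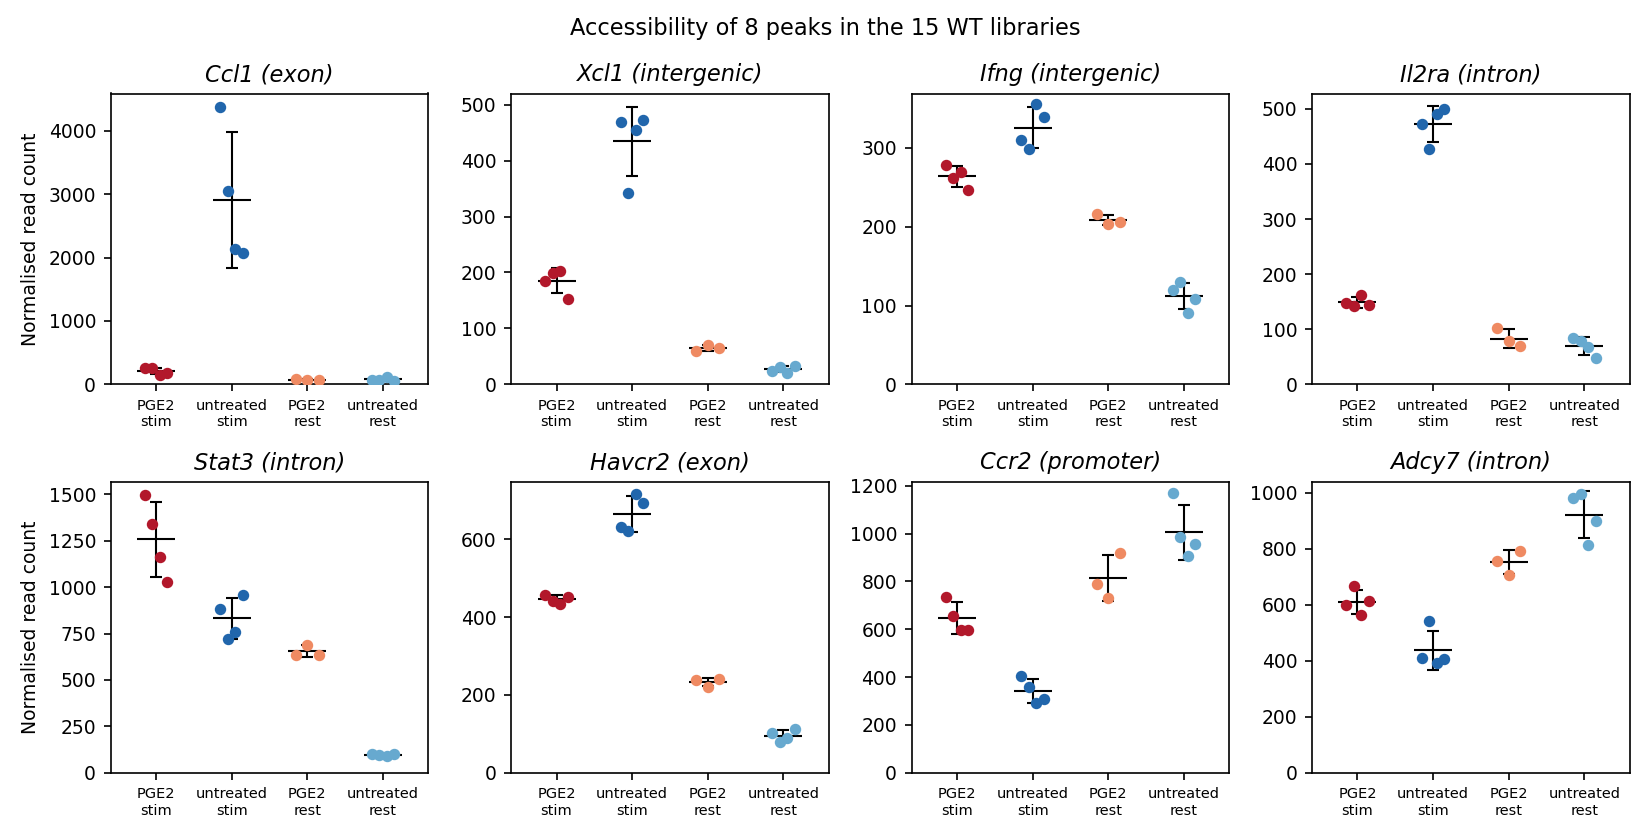
Normalised read counts of 8 peaks in the 15 WT libraries; points are libraries, bars the group mean ± SD, and groups run from PGE2 with stimulation to untreated rest. In Ccl1, Xcl1 and Il2ra the stimulated PGE2 libraries lie far below the stimulated untreated ones; in Ccr2 and Adcy7 they lie above them; Stat3 is highest with both agents, at 1257 ± 204.

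Genes of receptor activation followed the same pattern: 136 of 285 peaks were negative (47.7%) and 15 positive (5.26%), with a median of −0.47. All 136 were peaks that stimulation opened. Tnfaip3 encodes A20, an inhibitor of NF-κB signalling. An intronic Tnfaip3 peak (chr10:19009238-19009756) had 81.5, 84.8, 77.4 and 78.5 with PGE2 and stimulation, against 251, 218, 235 and 248 with stimulation alone. At rest it had 40.7, 56.7 and 30.1 with PGE2 and 16.5, 33.0, 16.7 and 13.1 without. The stimulated groups were apart, and at rest 1 library of each group overlapped. The interaction was −2.65 ± 0.31 (limma adjusted p = 8.2e-08) and 0.13 in the KO, and the difference −2.78 (limma adjusted p = 0.00011). Of 16 Tnfaip3 peaks 12 were negative and 1 positive.

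The orphan nuclear receptors Nr4a1 and Nr4a2 are induced by antigen receptor signals. A distal Nr4a1 peak averaged 171 ± 33.5 with PGE2 and stimulation, 466 ± 94.1 with stimulation alone, 32.7 ± 5.33 with PGE2 at rest and 24.3 ± 4.32 without either, an interaction of −1.86 ± 0.30. At an intronic peak of Nr4a2 it was −1.02 ± 0.11, and all 4 Nr4a2 peaks were negative. Tnfrsf9 encodes the costimulatory receptor 4-1BB, and all 5 of its peaks were negative, with −1.95 ± 0.23 at an exon. Nfkbie, which encodes an NF-κB inhibitor, had −1.45 ± 0.15 at an exon: 398 ± 40.0 with PGE2 and stimulation, against 1154 ± 87.2 with stimulation alone. The promoter of Dusp2, a MAP kinase phosphatase, had −1.20 ± 0.13, and was chosen after its values were seen.

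At some activation genes both agents opened the same site. Fosl2 encodes an AP-1 subunit. Its promoter averaged 913 ± 143 with PGE2 and stimulation, 1037 ± 109 with stimulation alone, 530.5 ± 107 with PGE2 at rest and 203 ± 17.1 without either. The PGE2 effect was not called during stimulation (−0.19, limma adjusted p = 0.16) and was 1.36 at rest (limma adjusted p = 2.1e-11), which gave an interaction of −1.55 ± 0.16. The Tnfaip3 promoter had the same shape, with 0.04 during stimulation, 0.62 at rest and −0.58 ± 0.14 as interaction.

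In the IL-2, IL-15 and STAT5 group 44 of 111 peaks were negative (39.6%) and 13 positive (11.7%), with a median of −0.31. Cish encodes CIS, a feedback inhibitor of IL-2 and IL-15 signalling, and all 5 of its peaks were negative. The distal one (chr9:107312631-107313754) had 396, 309, 363 and 342 with PGE2 and stimulation, against 940.1, 834, 871 and 838 with stimulation alone. Resting libraries had 264, 268 and 207 with PGE2 and 217, 230.3, 225 and 227 without. The stimulated groups were apart and the resting groups overlapped. Its interaction was −1.43 ± 0.14 (limma adjusted p = 1.3e-09), −0.25 in the KO, and the difference −1.18 (limma adjusted p = 0.00013). The Cish promoter, whose sequence is shown, had −1.14 ± 0.15.

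Il2ra encodes CD25, the chain that gives the IL-2 receptor its high affinity. An intronic peak (chr2:11654877-11655821) had 147, 142, 162 and 143 with PGE2 and stimulation, against 473, 427, 489.9 and 501 with stimulation alone, and 101, 78.6 and 69.1 with PGE2 at rest, against 84.0, 77.7, 66.8 and 47.8 without. The stimulated groups did not overlap and the resting ones did. The interaction was −1.94 ± 0.25 (limma adjusted p = 3.9e-07), −0.11 in the KO, and the difference −1.82 (limma adjusted p = 0.00095). All 5 Il2ra peaks were negative. The survival genes Bcl2l1 (BCL-XL) and Bcl2 had −2.08 ± 0.24 and −1.72 ± 0.19 at introns. An exon peak of Socs1, a JAK inhibitor chosen after its values were seen, had −1.33 ± 0.17.

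Cytotoxic granule genes had 25 of 78 peaks negative (32.1%) and 8 positive (10.3%), with a median of −0.15. Gzmb encodes granzyme B, the granule protease that triggers apoptosis. Its promoter peak (chr14:56261712-56262972) had 1097, 1158, 919 and 934 with PGE2 and stimulation, against 1544, 1373, 1348 and 1393 with stimulation alone. The resting counts were 898, 759 and 836 with PGE2 and 528, 534, 528 and 447 without. PGE2 libraries were all lower during stimulation and all higher at rest (interaction −1.17 ± 0.13, limma adjusted p = 2.2e-08). In the KO, which carries a Cre driven by granzyme B sequences, the value was −0.34, and the difference was −0.84 (limma adjusted p = 0.0031). A promoter peak of Serpinb9, which protects the cell from its own granzyme B, averaged 347 ± 32.6 with PGE2 and stimulation, 551 ± 74.5 with stimulation alone, 219 ± 10.6 with PGE2 at rest and 98.4 ± 8.18 without either, an interaction of −1.81 ± 0.19. The promoters of Cst7, a cystatin, and Prf1, the pore-forming perforin, had −1.02 ± 0.11 and −0.75 ± 0.11. Granzyme A (Gzma) had 2 positive and 0 negative peaks among 3.

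Inhibitory receptor and adenosine genes had 20 of 75 peaks negative (26.7%) and 5 positive (6.67%), with a median of −0.12. Havcr2 encodes TIM-3. Its exon peak (chr11:46466488-46467390) had 457, 442, 434 and 452 with PGE2 and stimulation, against 630.4, 622, 715 and 694 with stimulation alone. Resting libraries had 238, 221 and 240.2 with PGE2, against 102, 77.7, 88.4 and 112 without. PGE2 libraries were lower than untreated ones during stimulation and higher at rest. The interaction was −1.87 ± 0.24 (limma adjusted p = 4e-07), and the difference from the KO was −1.77 (limma adjusted p = 0.0009).

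Tigit encodes a receptor for nectin-like ligands. Its promoter (chr16:43663747-43665296) had 1997, 1989, 1863 and 1856 with PGE2 and stimulation, against 1039, 1083, 984 and 1042 with stimulation alone. At rest it had 1793, 1810.5 and 1767 with PGE2, against 1003, 1013, 916 and 1049 without. PGE2 libraries were higher in both states, by 0.89 log2 during stimulation and 0.85 at rest, and the interaction of 0.04 ± 0.11 was not called (limma adjusted p = 0.81). A distal Tigit peak had −1.37 ± 0.22.

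Peaks that PGE2 opened strongly at rest showed interactions of differing size. These were chosen after their values were seen. At a distal peak of Pdcd1, the gene of PD-1, (chr1:94074313-94075538) the means were 873 ± 265 with PGE2 and stimulation, 161 ± 33.5 with stimulation alone, 575 ± 87.7 with PGE2 at rest and 53.6 ± 8.49 without either. PGE2 raised it by 2.41 log2 during stimulation and 3.40 at rest, and the interaction of −0.99 ± 0.32 passed (limma adjusted p = 0.022). In counts, the gap between the means with and without PGE2 was wider during stimulation than at rest. The negative sign thus belongs to the log2 scale. At an intronic peak of Pde4d, a cAMP phosphodiesterase, the corresponding effects were 1.25 and 1.57, and the interaction of −0.33 ± 0.13 missed the threshold (limma adjusted p = 0.055). The Pdcd1 promoter, at −0.92 ± 0.35, missed it (limma adjusted p = 0.052). It passed under other settings, among them the linear scale (limma adjusted p = 0.0012) and DESeq2 on whole reads (adjusted p = 0.027). Nt5e makes CD73, which forms adenosine. Its promoter was positive at 0.50 ± 0.13. A distal Nt5e peak was negative at −0.94 ± 0.23, and was not called on the linear scale (limma adjusted p = 0.061).

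Transcription factor genes of NK cells were mixed, with 71 of 364 peaks negative (19.5%) and 47 positive (12.9%) and a median of 0.02. These shares were not far from the 14.7% and 10.6% of all tested peaks. An intronic Stat3 peak (chr11:100933480-100934628), in the gene of a cytokine-activated factor, had 1496, 1341, 1161 and 1029 with PGE2 and stimulation, against 883, 722, 761 and 959 with stimulation alone. Resting cells had 635, 691 and 635 with PGE2, against 99.7, 95.2, 90.3 and 103 without. PGE2 libraries were higher in both states, by 0.59 log2 during stimulation and 2.74 at rest, so that the interaction of −2.15 ± 0.18 (limma adjusted p = 1e-10) left PGE2 raising the peak in both. The KO value was −0.34 and the difference −1.81 (limma adjusted p = 2.5e-05). On the linear scale of counts the interaction of the intronic Stat3 peak was −131 and was not called (limma adjusted p = 0.33). The Stat3 promoter was at 0.01 ± 0.13 log2, and not called. Of 6 Stat3 peaks 1 was negative and 1 positive. Tbx21 encodes T-bet, which drives effector differentiation. A distal Tbx21 peak had −0.94 ± 0.13 and its promoter −0.22 ± 0.15 (limma adjusted p = 0.29). An intronic peak of Tcf7, a factor of less differentiated lymphocytes chosen after its values were seen, had −1.85 ± 0.26. An intronic peak of its relative Lef1, also chosen after its values were seen, had 0.90 ± 0.13. Both genes had 1 negative and 4 positive peaks, among 9 of Tcf7 and 11 of Lef1.

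NK receptor and adaptor genes leaned the other way: 15 of 108 peaks were negative (13.9%) and 32 positive (29.6%), with a median of 0.09. The members with the smallest p were nevertheless negative. They were an intronic peak of the kinase gene Zap70 (−1.86 ± 0.23), the promoter of Crtam, a receptor of activated lymphocytes (−1.35 ± 0.17), and an exon peak of Slamf7, a self-ligand receptor (−1.48 ± 0.25). Of 5 Zap70 peaks 2 were negative and 2 positive. The NK1.1 gene itself, Klrb1c, had 2 positive and 0 negative peaks among 7. An intronic peak of Il18r1, of the IL-18 receptor, averaged 407 ± 37.9 with PGE2 and stimulation, 236 ± 6.07 with stimulation alone, 476 ± 17.0 with PGE2 at rest and 497 ± 51.0 without either. Its interaction of 0.84 ± 0.16 was among those chosen after their values were seen.

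Migration genes had 33 of 140 peaks positive (23.6%) and 22 negative (15.7%), with a median of 0.15. Ccr2 encodes the receptor for monocyte chemoattractant proteins. Its promoter peak (chr9:124101885-124104228) had 736, 655, 598 and 598 with PGE2 and stimulation, against 404, 361, 293 and 308 with stimulation alone. At rest it had 790.1, 732 and 919.9 with PGE2 and 1171, 987, 908 and 955 without. The stimulated PGE2 libraries lay above the stimulated untreated ones without overlap, and the resting groups overlapped. The interaction was 1.23 ± 0.16 (limma adjusted p = 4e-07), 0.04 in the KO, and the difference 1.19 (limma adjusted p = 0.00071). S1pr1, of the receptor by which lymphocytes leave tissues, had 4 positive and 0 negative peaks among 15, and the integrin gene Itga1 had 5 and 0 among 8. A negative member was the promoter of Icam1, an adhesion ligand induced by NF-κB (−0.88 ± 0.11).

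Among genes of the PGE2 pathway itself only the positive share stood above that of all peaks. In the cAMP and CREB list 40 of 192 peaks were positive (20.8%) and 26 negative (13.5%). Of all tested peaks 10.6% were positive and 14.7% negative. Adcy7 encodes an adenylyl cyclase, which makes cAMP. Its intronic peak (chr8:88293544-88294437) had 598, 666, 564 and 612 with PGE2 and stimulation, against 408, 542, 390.0 and 407 with stimulation alone. The resting counts were 755, 706 and 792 with PGE2 and 981, 994, 812 and 897 without. PGE2 libraries were higher during stimulation and lower at rest, with an interaction of 0.78 ± 0.13 (limma adjusted p = 3.7e-05) and a difference from the KO of 0.58 (limma adjusted p = 0.049). An intronic peak of Sik3, a kinase inhibited by protein kinase A, averaged 482 ± 24.4 with PGE2 and stimulation, 761 ± 75.8 with stimulation alone, 109 ± 11.4 with PGE2 at rest and 32.6 ± 9.86 without either. Its interaction of −2.41 ± 0.27 differed from the KO by −2.09 (limma adjusted p = 0.00066). Pde4a, a cAMP phosphodiesterase, had −1.19 ± 0.14 at a distal peak, and Crem, a cAMP-responsive repressor, −0.49 ± 0.14 at an intron (limma adjusted p = 0.01, and 0.052 without the resting PGE2 library of replicate 2). The other of the 2 Crem peaks was called positive, at 0.52.

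Prostanoid and other Gs-coupled receptor genes had 6 negative and 5 positive of 33 peaks (18.2% and 15.2%), with a median of −0.05. Of the PGE2 receptor genes, Ptger2 had its 1 peak called, Ptger3 had 1 negative peak of 6, and Ptger1 and Ptger4 had 0 called, of 1 and 6. At the Ptger2 promoter (chr14:44988181-44990885) the counts were 627, 637, 642 and 609 with PGE2 and stimulation, against 1082, 941, 1109 and 982 with stimulation alone. At rest they were 604, 601 and 609 with PGE2 and 559.8, 633, 627 and 699 without. Stimulated untreated libraries were the high ones, and the resting groups overlapped. The interaction of −0.65 ± 0.16 passed (limma adjusted p = 0.002). KO values of this peak are not read here, since Ptger2 is the deleted gene. The Ptger4 promoter had −0.10 ± 0.15. Peaks of other Gs-coupled receptors were negative for an adenosine receptor (Adora2a, −0.61 ± 0.11), and positive for histamine H2 (Hrh2, 0.54 ± 0.12, 4 of 6 peaks).

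TGF-β genes, with 10 negative and 7 positive of 79 peaks, lay near the background of all peaks (12.7% and 8.86%). Among them a distal Smad7 peak had −2.26 ± 0.28. Housekeeping genes had 9 negative and 1 positive of 41 (22.0% and 2.44%), with a median of −0.15. The 3 named by the rule were distal peaks of Ywhaz (−1.80 ± 0.46), Actb (−0.90 ± 0.23) and Eef1a1 (−0.86 ± 0.13), not promoters.

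**Figure D4:**
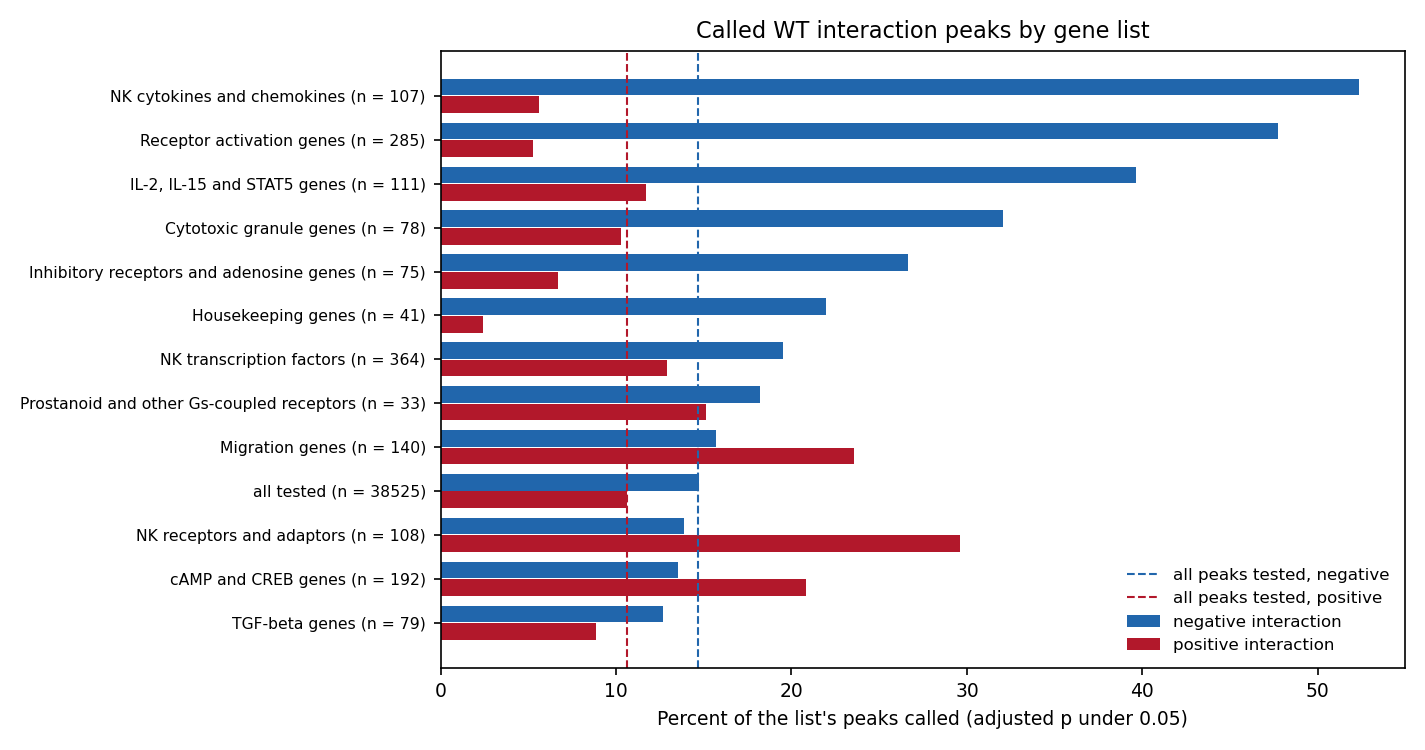
Percent of each gene list's peaks with a called negative (blue) or positive (red) WT interaction; n is the number of peaks, dashed lines mark all tested peaks at 14.7% and 10.6%. Cytokine and chemokine genes (52.3%) and receptor activation genes (47.7%) have the highest negative shares, and NK receptor and adaptor genes the highest positive share (29.6%). Not drawn are peaks opened by stimulation in untreated KO cells, of which 49.6% were negative, and those closed, of which 35.8% were positive.

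The largest interactions are given by size alone. The 12 largest negative ones with a mean of at least 50 in some WT group, 1 per gene, were near Ccl1, Fbxo17, Apol11b, Fasl, Atxn1, Zmiz1, Ubxn2a, Cass4, Fam102a, Pvt1, St5 and Enpp6, from −3.72 to −3.07. A distal peak of Fam102a (chr2:32506606-32507473) had 115, 88.1, 72.4 and 94.4 with PGE2 and stimulation, against 487, 388, 426 and 487 with stimulation alone. At rest it had 36.5, 25.6 and 23.9 with PGE2, against 15.7, 16.5, 17.7 and 11.9 without. The order of the groups turned between the states, with an interaction of −3.11 ± 0.25 (limma adjusted p = 8.6e-11) and a difference from the KO of −3.03 (limma adjusted p = 2.4e-06). At low peaks such as Fbxo17, with 6.30 ± 1.83 against 72.3 ± 13.1 in the stimulated groups and 5.86 ± 3.38 against 5.00 ± 1.91 at rest, the pseudocount of 1 shrinks the log2 change.

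The 12 largest positive changes were near Kif5c, Ahrr, Sdc1, Thsd7b, Nos1ap, Piezo1, Ncald, Uimc1, Cacna1d, Hp1bp3, Sgk3 and Zfyve26, from 1.95 to 1.52. Kif5c, of a kinesin motor, had 48.2 ± 9.07 with PGE2 and stimulation, 14.8 ± 3.10 with stimulation alone, 45.2 ± 14.6 with PGE2 at rest and 54.7 ± 11.5 without either. Ahrr, of the repressor of the aryl hydrocarbon receptor, had 52.6 ± 11.5, 30.1 ± 7.24, 57.9 ± 10.6 and 119 ± 27.8 in the same order. In an intron of Gpc5, a glypican gene (chr14:115250080-115251295), the counts were 119, 112, 151 and 97.2 with PGE2 and stimulation, against 75.9, 70.5, 81.6 and 71.1 with stimulation alone. At rest they were 153, 153 and 147 with PGE2, against 306, 251, 308 and 223 without. Here PGE2 libraries were higher during stimulation and lower at rest, and the interaction was 1.49 ± 0.22 (limma adjusted p = 5.2e-06).

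A positive interaction at a site that stimulation opened was rare, with 5 peaks, which are named because of their values. They lay in an exon of Lrrfip1 and in introns of Ski, D030028A08Rik, Ldlrad4 and Fars2. The Fars2 peak averaged 101 ± 31.2 with PGE2 and stimulation, 45.8 ± 10.0 with stimulation alone, 12.03 ± 4.14 with PGE2 at rest and 15.1 ± 5.54 without either. At the other 4 the interaction was 0.29 to 0.55.

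Called peaks made up a smaller share of promoters than of the other position classes. Among 12048 promoter peaks 9.06% were negative and 4.32% positive, against 17.7% and 14.1% of 12699 intronic, 18.02% and 12.6% of 10483 intergenic, and 13.5% and 13.7% of 3295 exonic peaks. Called promoter peaks also had smaller interactions, with medians of −0.56 and 0.49, than intergenic ones, with −1.10 and 0.75. Promoters made up 19.3% of the negative, 12.7% of the positive and 31.3% of all tested peaks.

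**Figure D5:**
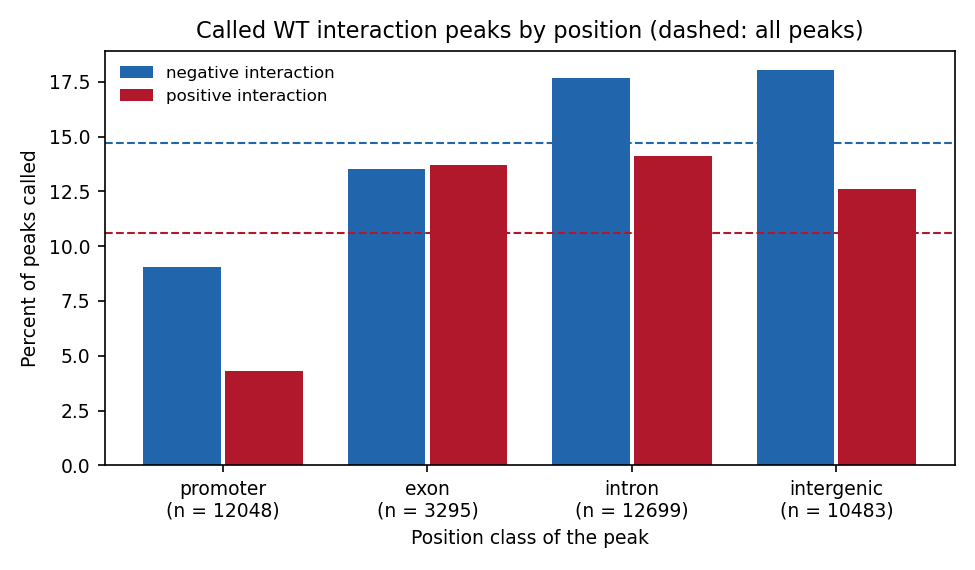
Percent of peaks in each position class, as the deposited table gives it, with a called negative (blue) or positive (red) WT interaction; dashed lines mark all tested peaks at 14.7% and 10.6%. Promoters show 9.06% and 4.32%, below the other classes in both directions.

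Promoter windows lying wholly inside a promoter peak were available for 648 of 1092 negative and 270 of 520 positive peaks, and for 8102 of all. AP-1 letters occurred in 7.72% of the negative, 6.67% of the positive and 4.62% of all such windows. The CRE, the palindrome bound by CREB, occurred in 4.94%, 0.37% and 3.74%, which is 32 negative windows and 1 positive one. The NFAT core occurred in 21.3%, 16.3% and 16.0%, and GAS in 7.25%, 8.89% and 6.78%. These shares are descriptions of the letters in the windows.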

How the data were processed

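Values came from 1 deposited table of read counts in peaks, divided by DESeq2 size factors by the authors, which is a normalised signal and not raw counts. Per the submitters' processing notes, Trimmomatic 0.39, Bowtie2 2.4.1, MACS2 2.2.7.1 and DESeq2 were used on build mm10. Duplicate removal, the transposase offset and whether peaks were called on pooled samples are not given in the sources used here. In each library 100% of values were whole multiples of 1 read within a tolerance of 0.05 reads, which gave the reads behind the signal.

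Interactions were fitted here with limma 3.58.1 in R 4.3.3 on log2(normalised count + 1), with trend. All 30 libraries in 8 groups shared one estimate of the spread, with 22 residual degrees of freedom. Peaks with a mean under 10 were left out (1 of 38526), and 38525 were tested two-sided. P-values were adjusted by Benjamini-Hochberg over all of them, and the threshold was 0.05. The pseudocount shrinks the log2 changes of low peaks. KO values came from the same fit. A trial of this fit on simulated data drew each library independently. It therefore does not cover the shared deviations of libraries with the same number.

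The members, gene lists and tests were chosen with earlier results of these data known. Peaks were named by a rule: the 12 largest each way, 1 per gene, whose highest WT group averaged 50 or more, leaving out unnamed, Gm and Rik genes; up to 3 genes per list with the smallest p; a set of genes chosen with earlier results known, with their promoter; and 4 genes each way where PGE2 was called in opposite directions. This gave 89 peaks. Some of them are not reported here. Others are said to have been chosen after their values were seen. Alternatives were edgeR 4.0.16 and DESeq2 1.42.0 on whole reads, other scalings, pseudocounts and filters, WT libraries alone, a replicate block, the linear scale, and each library left out. Promoter sequences are RefSeq windows of GRCm38.p6.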

Additional observations from a re-analysis of the deposited data

Results flagged for a closer look

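The interaction differed between WT and the KO, by the limma test of that difference, at 13 of the peaks shown with their libraries and at Sik3. WT minus KO it was −3.56 log2 at Ccl1, −2.61 at Xcl1, −0.89 at the distal Ifng peak, −2.78 at Tnfaip3, −1.18 at Cish, −1.82 at Il2ra, −0.84 at Gzmb and −1.81 at Stat3. It was −1.77 at Havcr2, 1.195 at Ccr2, 0.58 at Adcy7, −2.09 at Sik3, −3.03 at Fam102a and 1.34 at Gpc5. Across all peaks it was more negative in WT at 2036 and more positive at 1037, or 7.98% in either direction. Among the 89 named peaks it was called at 62. Many of these were named for a large WT interaction or its small p. That interaction is part of the difference, so a raised share follows from the choice.

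Single libraries lay apart from the others of their group at 3 of these peaks. The stimulated untreated WT library of replicate 2 had 343 normalised counts at the Xcl1 peak, where the other 3 had 454 to 473, and 542 at the Adcy7 peak, where they had 390.0 to 408. The resting untreated WT library of replicate 4 had 447 at the Gzmb promoter, where the other 3 had 528 to 534. These were 3 of 48 groups of 4 libraries examined, and chance alone flags about 1 in 20. The groups share libraries and are not independent, and the Xcl1 and Adcy7 flags fell on the same library. It had the fewest reads of the WT libraries (10575515). Over KO-opened peaks its mean was 0.19, where the others of its group had 0.30 to 0.31. Without it 9983 peaks were called, the highest count with a library left out. The cause was not tested.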

How the results depend on the processing

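The negative and positive counts stayed within 1.5 times their values under every alternative run. They were 5792 and 4359 with edgeR, 6012 and 4586 with DESeq2, 4998 and 4948 with scaling by total reads, which moved the median of all peaks to 0.03 log2, and 6322 and 4845 with the WT libraries alone. Leaving out 1 library gave 4853 to 5740 negative and 3035 to 4243 positive peaks, 7888 to 9983 in all. The KO count was 0 with KO libraries alone, edgeR, the replicate block and each KO library left out. Called KO peaks were not counted under the other settings. Peaks opened by PGE2 at rest and closed during stimulation (497) numbered 775 with the replicate block and 156 on the linear scale, and 371 to 501 with a library left out. The opposite turn (197) numbered 350 with WT libraries alone, 358 with the replicate block, 313 on the linear scale and 64 to 210 with a library left out. Positive peaks that stimulation opened (5) numbered 8 with the block, 16 on the linear scale and 1 to 8 with a library left out. WT minus KO gave 1726 more positive peaks with the block, and 579 to 1510 positive and 1572 to 2416 negative ones with a library left out. The cause was not tested.

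Deviations of libraries with the same number correlated above 0.1 in 5 of 21 WT pairs and 19 of 21 KO pairs, and above the mean with other numbers in 20 of 21 of each. Libraries with the same number thus tended to deviate alike, more so in the KO. The labels tie the numbers to nothing, and the main fit used no replicate block. It therefore leaves this shared part in the spread. With the replicate block 11727 peaks were called, 9671 of them shared with the 9757. On the linear scale 9187 were called, of which 8263 were shared with the same sign. The sign was opposite there at 19 of the 9757. The uncalled Stat3 promoter turned negative with the block (−0.0017), edgeR and DESeq2 (both −0.0030), on the linear scale (−2.86 counts) and with 5 of the WT libraries left out in turn (range over all of them −0.092 to 0.163). On the linear scale 3 named peaks lost their call: Stat3 intron, the distal Pdcd1 peak at chr1:94055688-94056590 (−21.4 counts) and a distal Nt5e peak. Among results for named peaks, 2275 kept direction and side of the threshold, 17 newly passed and 4 no longer passed. Intervals cover the spread between libraries only.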

Other observations

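Further members of the described groups were chosen after their values were seen. A distal peak of Itgb1, of the β1 integrin, averaged 535 ± 29.5 normalised counts with PGE2 and stimulation, 306 ± 13.3 with stimulation alone, 545 ± 19.2 with PGE2 at rest and 596 ± 56.4 without either (SD), an interaction of 0.93 ± 0.14 log2 (SE). Of 17 Itgb1 peaks 4 were negative and 3 positive. In an intron of Gnas, the gene of the Gs α subunit, PGE2 had effects of −0.09 log2 during stimulation and −1.22 at rest, and the interaction was 1.13 ± 0.22. The promoter of Cd27, a costimulatory receptor, was negative at −1.60 ± 0.30, with means of 202 ± 29.5, 486 ± 32.9, 54.6 ± 8.96 and 43.0 ± 6.15 in the same order of groups.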
